A study of Drosophila melanogaster with 15 samples.

Results

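Same-strand tandem units are transcription units that follow each other on one strand of a chromosome, so that polymerase leaving the first runs towards the start of the second. A tandem pair here was a couple of consecutive units on the same strand with a gap of 0 to 100 bp. Each unit had to hold a single gene whose symbol was not CR plus digits, held no colon and did not begin with mir-. The rule gave 342 pairs made of 660 units, out of 15991 units and 15975 neighbouring couples in the authors' annotation of transcription units on build dm6. Both units were eligible, whatever the gap, in 9372 couples, which serve as the background for the pairs.

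The series is an mNET-seq study of Drosophila melanogaster embryos at stage 15, with 15 samples in 4 groups. The groups are 4 female MOF, 4 male MOF, 4 female control and 3 male control samples (numbered 2, 3 and 4). MOF embryos were depleted of maternal mof with UAS-mof RNAi, control embryos had a control RNAi, and each was sorted by sex. Rearing and collection at 25 °C and homogenates pooled from 6000 embryos are shared by all groups, and no driver line is named in the labels. The file used here holds positions and gene names only, with no value of any sample, so depth is unknown and the embryo label could not be checked against marker genes. Nothing below compares MOF with control embryos or males with females.

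MOF is a histone H4 acetyltransferase. It works in the male-specific lethal (MSL) complex on the single X of males, where it boosts transcription, and in the NSL complex at promoters of both sexes. mNET-seq maps RNA held by engaged RNA polymerase. Polymerase II does not stop at the poly(A) site of a gene: it transcribes past it before it terminates. Where the next start on the strand lies close behind that site, reads of the first gene's termination zone and of the second gene's promoter fall in the same stretch. Nascent signal in that stretch is then hard to assign to one gene. Where adjacent genes arose by duplication they often keep the same orientation, so tandem arrays also hold gene families.

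All 660 members matched a RefSeq gene of Release 6 plus ISO1 MT, all 660 were protein-coding, and 658 had exactly the RefSeq start and end. Both genes were also protein-coding in 99.2% of all 9372 eligible couples, so this is hardly particular to the pairs. The pairs divided into 168 on the plus strand and 174 on the minus strand. The median gap was 65 bp, which the rule partly sets. Gaps of 0 to 50 bp made up 107 pairs and gaps of 51 to 100 bp made up 235. Counts per 10 bp of gap ran from 13 pairs at 0 to 9 bp, through 25 at 40 to 49 bp, to 57 at 80 to 89 bp. They were highest beyond the limit, at 78 couples each for 120 to 129 bp and 180 to 189 bp.

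**Figure D1:**
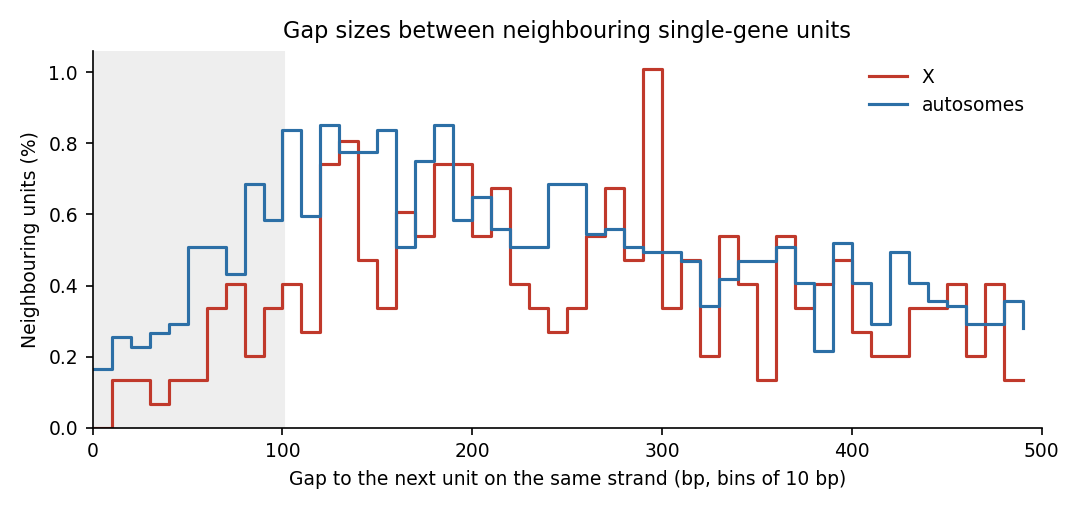
Share of eligible neighbouring couples (y axis, percent of 1486 on X and of 7876 on the autosomes) by the gap between units (x axis, bp, bins of 10 bp up to 500 bp). The grey band marks the tandem pairs of 0 to 100 bp, where the autosomal line lies above the X line in every bin.

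At the upper limit stood 5 pairs with a gap of exactly 100 bp. They were CG4887/CG4896, CG15155/CG5783 and CG31673/CG31674 on 2L, CheB42a/ppk25 on 2R, and fs(1)Ya/vilya on X. Here and below the first name is the upstream gene. Another 5 couples lay just outside, with a gap 1 bp longer: CG10265/CG7639 and Prosalpha3/CG10543 on 2R, CG5235/Tasp1 and Rpn12/UQCR-C2 on 3L, and CG44532/mei-P26 on X. At the lower limit, 2 pairs had no base between the units. The minus-strand unit of Utx, the histone H3 lysine 27 demethylase (2L, 10272325 to 10278811), ended where that of trk began. The trk gene encodes Trunk, a ligand of the Torso receptor, and its unit (10271443 to 10272324) was 882 bp long. On 2R, stmA (8729502 to 8734304) abutted CG30356 (8728964 to 8729501) in the same way.

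The next smallest autosomal gaps were 1 bp between the accessory gland gene Acp24A4 and CG3513 on 2L, and 3 bp each for CG33128/CG31926 on 2L and CG33287/CG12983 on 3L. A gap of 0 to 10 bp was found in 18 pairs in all, none of them on X. The smallest X gap was 11 bp (13368180 to 13368190), between the synaptotagmin gene Syt12 and dmrt11E, a relative of doublesex. It was followed by ksh/CG12204 with 18 bp, Mec2/HP1D3csd with 20 bp, CG12717/ade5 (now pira and Paics; Paics is an enzyme of purine synthesis) with 24 bp and w/CG32795 with 31 bp.

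Tandem pairs were sparser on X than on each large autosomal arm. Of eligible couples, 29 of 1486 on X (1.95%, 95% exact binomial interval 1.31 to 2.79) and 313 of 7876 on the autosomes (3.97%, 3.55 to 4.43) had a gap of at most 100 bp. The X share was 0.491 times the autosomal one. By arm the shares were 4.78% on 2L (80 pairs), 4.58% on 2R (89), 3.20% on 3L (58) and 3.61% on 3R (86). The intervals of 3L (2.44 to 4.11) and X overlapped, and those of 2L, 2R and 3R did not overlap with that of X. Chromosome 4 had 0 of 58, with an exact interval up to 6.16% (5.17% by the limit of 3 counts), and Y had 0 of only 10 couples. These intervals cover counting error only and take couples as independent, which neighbouring units are not. No chance test was made.

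Relative to the autosomal share, the X share rose with distance. The difference in percentage points shrank only in the class of 501 to 1000 bp. Gaps of 0 to 50 bp made up 0.538% of couples on X (0.233 to 1.06) and 1.26% on the autosomes (1.02 to 1.53), and gaps of 51 to 100 bp 1.41% on X (0.877 to 2.15) and 2.72% on the autosomes (2.37 to 3.10). From just past 100 bp up to 200 bp the shares were 5.59% on X (4.47 to 6.88) and 7.36% on the autosomes (6.80 to 7.96). At 201 to 500 bp they were 11.7% on X and 13.5% on the autosomes, and at 501 to 1000 bp 9.69% on X and 9.47% on the autosomes. The intervals of X and the autosomes overlapped in these 3 longer classes, in the first of them only just, as they did at 0 to 50 bp. Spacing as a whole was wider on X: eligible couples had a median gap of 2804.5 bp on X, against 2212.5 bp on the autosomes. Among couples at most 1000 bp apart the tandem share was still 6.74% on X (29 of 430; 4.56 to 9.54) and 11.6% on the autosomes (10.4 to 12.9), from 9.81% on 3L to 13.7% on 2L. The part of the wider spacing in the tandem share was not tested.

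With every unit kept, joint and non-coding ones too, 66 of 2397 neighbouring couples on X lay within 100 bp (2.75%; 2.14 to 3.49), against 3.56% on the autosomes (3.26 to 3.89), where the large arms ran from 2.98% to 4.10%. The X share was then 0.773 times the autosomal one, and the intervals overlapped. In the whole genome 567 couples lay within 100 bp. The rule left out 83 of them for a unit of several genes and 142 for a symbol it excludes.

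**Figure D2:**
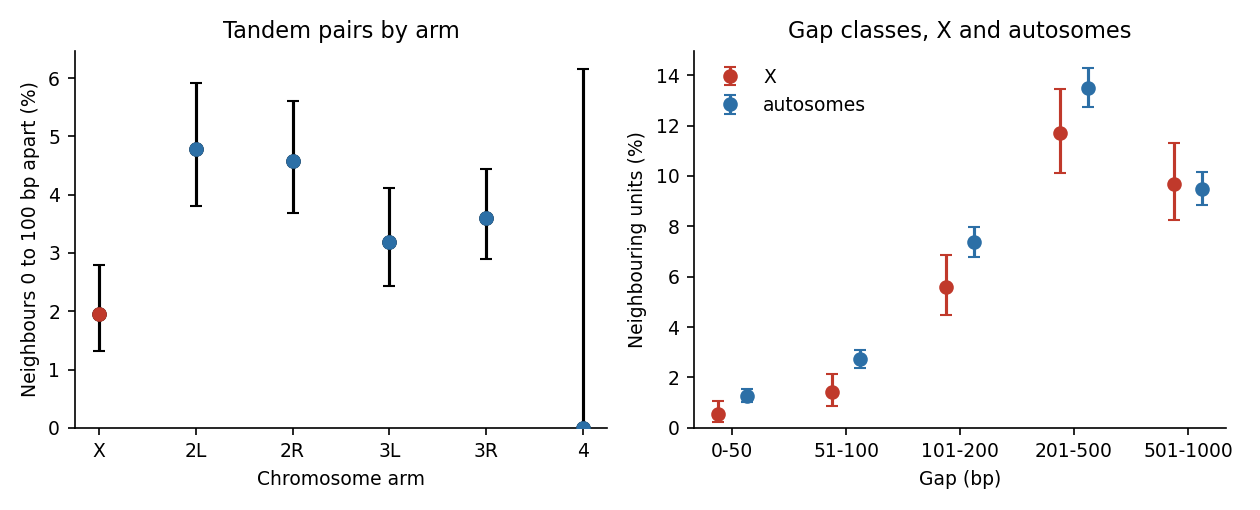
Left, share of eligible neighbouring couples with a gap of 0 to 100 bp (y axis, percent) on each chromosome arm (x axis). Right, share by gap class (x axis, bp) on X and on the autosomes. Points are shares and bars 95% exact binomial intervals. X lies at 1.95%, below the 3.20% to 4.78% of the large autosomal arms, and the intervals overlap widely at 501 to 1000 bp. Y, with 10 couples, is not drawn.

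The 29 X pairs held 57 units. Upstream members with known roles include Cdk7, the kinase of TFIIH, 47 bp before CG17764 (gap 5307418 to 5307464). XRCC1, of DNA strand break repair, stood 63 bp before CanB, a regulatory subunit of calcineurin. Gclc, the catalytic subunit of glutathione synthesis, was the longest upstream unit of X (13967 bp) and lay 85 bp before CG2258. APC4, of the anaphase-promoting complex, lay 64 bp before CG32708, l(1)G0334 (now Pdha, of pyruvate dehydrogenase) 43 bp before CG7024, and Zpr1 71 bp before CG9034 (now NdufA3, of respiratory complex I).

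Downstream units of X had a median length of 1241 bp (1087 to 2282). Of these 29 units, 2 were over 10 kb (6.90%) and 19 had a CG number as current symbol (65.5%, 45.7 to 82.1). On the autosomes the median was 1493 bp (1327 to 1634), with 2.24% over 10 kb and 58.1% with a CG number (52.5 to 63.7). The intervals of X and the autosomes overlapped. Some downstream units of X with known roles follow. The calcium channel gene cac had a unit of 53808 bp with 15 transcripts (11931280 to 11985087, minus strand), and its start lay 66 bp behind the end of gd, a serine protease gene of the dorsoventral pathway. The arm unit, which encodes beta-catenin (9246 bp, 6 transcripts), began 52 bp behind CG32803 (now Ldaf1). The carboxypeptidase gene svr (12627 bp, 11 transcripts) began 76 bp behind CG17778, and IntS4, an Integrator subunit, 97 bp behind CG12112. The eye pigment transporter gene w (2790599 to 2796466) was the upstream unit of a pair with CG32795 that lay whole inside a joint opposite-strand unit, listed under kirre and other genes.

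The other X pairs were CG11379/CG14627 (68 bp), CG4199/CG14054 (75 bp), CG17777/CG3457 (78 bp), CG34434/CG34435 (86 bp), Obp8a/CG15368 (85 bp) and CG12655/CG43784 (50 bp). CG15458/CG15459 (70 bp), CG17168/CG17169 (95 bp), CG11697/CG11696 (90 bp) and CG32649/CG32650 (98 bp) completed the set, beside the run and the pair of alpha-PheRS described next and those named for their gaps above. The current symbols of CG11697 and CG32649 are Reepl1 and Coq8. No X pair joined genes with a shared symbol start.

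Runs of 3 or more units numbered 23, of which 22 held 3 units and 1 held 4. They took up 70 units and 47 pairs, so 295 pairs lay outside runs. Of all 342 pairs, 6 had a further unit within 100 bp before or after that the rule left out. There were 7 runs on 2L, 5 each on 2R, 3L and 3R, and 1 on X. Their span from the first start to the last end had a median of 5395 bp and ran from 1530 to 26666 bp.

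The X run was CG2129-CG15336-CG10959 on the plus strand (8145839 to 8150686), with gaps of 93 and 77 bp. Its first unit and the divergent alpha-PheRS began 237 bp apart. The gene alpha-PheRS encodes a phenylalanyl tRNA synthetase subunit and stood 68 bp before CG17982. These 5 units in 8137 bp thus ran outward from a divergent start region in 2 tandem sets.

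The run of 4 lay on 2R (17027190 to 17053855). It began with RhoGEF2 (17464 bp) and went on with SmydA-7, SmydA-6 and CG9646 after gaps of 89, 70 and 80 bp. Members of one family filled several runs. On 2L these were the endonuclease G-like genes Tengl1, Tengl2 and Tengl3 (gaps 29 and 52 bp), the adenylyl cyclase genes ACXC, ACXB and ACXA (39 and 82 bp), and Lectin-galC1, lectin-37Da and lectin-37Db (42 and 45 bp). On 2R the odorant-binding protein genes Obp57c, Obp57b and Obp57a stood 48 and 13 bp apart.

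Other runs joined a family pair to a different gene. On 3R, tx (8214 bp) was followed by the hexokinase genes Hex-t1 and Hex-t2 after 87 and 85 bp, and on 2L Mst36Fa and Mst36Fb were followed by CG43339 after 88 and 77 bp. The remaining named runs mixed genes without a common symbol. These were GalT1-CG30037-CG30036 and Spred-CG12857-Trs31 on 2R, Cln3-CG32191-CG32187 on 3L, and Sfp33A1-CG42471-CG42470 on 2L, the shortest at 1530 bp. On 3R there were sle-CG12592-CG18545, CG11168-Mink-Trf4-2, CG13639-ppk22-CG10899 (CG10899 is now CAH4) and CG43317-CG43318-rec. In the last, rec, a meiotic relative of the MCM helicases, had a unit of 9614 bp 75 bp behind CG43318.

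Runs of CG numbers alone were CG34448-CG31948-CG18641 and CG32986-CG32987-CG32988 on 2L and CG43677-CG43667-CG43666 on 2R. On 3L they were CG17029-CG17028-CG17027, CG42263-CG42654-CG42655, CG33287-CG12983-CG10587 and CG43329-CG43330-CG43331. In 3 of these runs the whole run lay within an opposite-strand unit: CG32986 to CG32988 in that of CR45260, CG17029 to CG17027 in that of brm, the ATPase of the Brahma remodelling complex, and CG42263 to CG42655 in that of Ac76E.

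**Figure D3:**
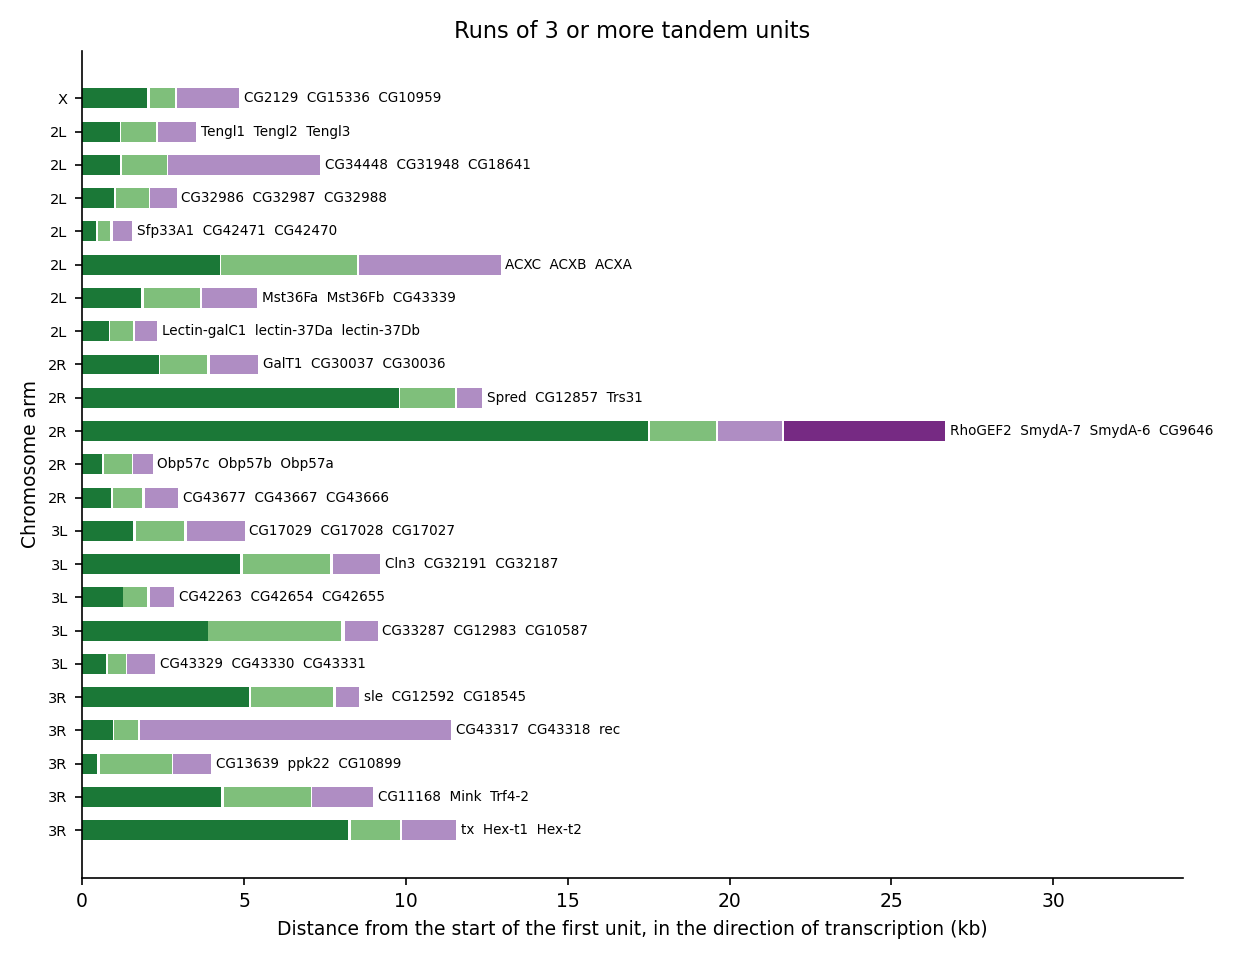
The 23 runs of 3 or more tandem units, X at the top. Each row is a run, with its chromosome arm at the left, drawn in the direction of transcription (x axis, kb from the first start). Colours mark the order of the units and the names follow in that order. Gaps of at most 100 bp are barely visible at this scale. The run of 4 units with RhoGEF2 is the longest.

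Tandem units were shorter than other units. The median length was 1579 bp for the 660 members (95% interval 1454 to 1694) and 2135 bp for the 11229 eligible units in no pair (2091 to 2181). Units over 10 kb made up 4.09% of members and 12.2% of the others, and units under 1000 bp made up 26.8% of members and 18.8% of the others. Both units were under 1000 bp in 44 pairs (12.9%), against 9.61% of couples over 100 and up to 1000 bp apart and 5.37% of couples over 1000 bp apart. From the start of the upstream unit to that of the downstream unit the distance had a median of 1764 bp and ran from 353 to 35577 bp. It was under 1000 bp in 78 pairs (22.8%) and under 500 bp in 9 pairs.

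Within pairs, upstream and downstream units could not be separated by length. The medians were 1690.5 bp upstream (1507 to 1875) and 1482 bp downstream (1311 to 1630), and the upstream unit was the longer in 180 of 342 pairs. The median log2 ratio of upstream over downstream length was 0.05, with an exact interval of -0.04 to 0.15 that includes 0. On X it was 0.39 (-0.44 to 1.01; 29 pairs), and on the autosomes 0.04 (-0.05 to 0.13). The tails were less even: the upstream unit was at least 4 times longer in 43 pairs and the downstream unit in 18.

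**Figure D4:**
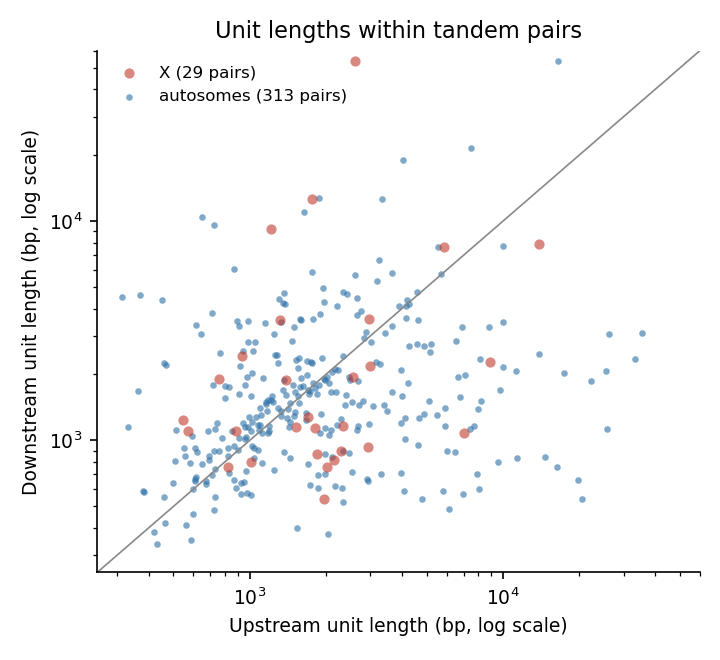
Length of the upstream unit (x axis, bp, log scale) against that of the downstream unit (y axis, bp, log scale) in 29 X pairs and 313 autosomal pairs. The line marks equal length. Points spread widely about it, with the upstream unit longer in 180 of the 342 pairs.

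The 5 longest upstream units were those of Ac78C (35484 bp, an adenylyl cyclase, 93 bp before CG10565), ASPP (33295 bp, 76 bp before CG15661, now Ugt49C1), CG6051 (26311 bp), CG32365 (25773 bp, 65 bp before the translation factor eIF4E5) and Eip63F-1 (25645 bp, 41 bp before mge). The shortest were CG44040 (314 bp), CG13998 (331 bp), CG34305 (362 bp), Sf3b5 (370 bp) and CG16713 (380 bp). Among downstream units the longest were those of the RNA-binding protein Syp (53998 bp, 17 transcripts, 89 bp behind CG42322) and of cac on X. CG9527 (now Acox3, of peroxisomal fatty acid oxidation, 21680 bp), CG13280 (19068 bp) and the amino acid transporter gene slif (12777 bp) followed. The shortest were CG42869 (337 bp), CG34446 (350 bp), CG45122 (373 bp), CG42471 (383 bp) and CG18628 (397 bp).

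Most members had few annotated transcripts. A single transcript was listed for 55.3% of upstream units (189; 49.8 to 60.6) and 59.9% of downstream units (205; 54.5 to 65.2), and for 50.4% of eligible units in no pair (49.5 to 51.3). The pairs with the most transcripts were CG42322/Syp with 6 and 17, gd/cac with 4 and 15, and 14-3-3zeta/Pfk on 2R with 12 and 5. Pfk encodes phosphofructokinase of glycolysis, and 14-3-3zeta an adaptor of phosphorylated proteins. They were followed by Phax/Su(var)2-10 with 2 and 14 and CG17778/svr with 2 and 11. Su(var)2-10 encodes the SUMO ligase PIAS, and Phax an export factor of small nuclear RNA. In 4 of these 5 pairs the downstream gene had the more transcripts. Over all 342 pairs the mean was 1.85 transcripts per upstream unit and 1.74 per downstream unit.

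The positions differed most in divergent starts, that is in a unit on the other strand that begins upstream of the unit's own start and no more than 500 bp away from it. Such a start was found for 113 of 342 upstream units (33.0%; 28.1 to 38.3) and 10 of 342 downstream units (2.92%; 1.41 to 5.31), against 27.2% of eligible units in no pair (26.4 to 28.1). The window before a downstream start is by construction mostly the upstream unit itself. Of the 10 starts, 9 lay inside the upstream unit and 1, of CG3552 with CR45873, in the 60 bp gap between CG3437 and phol, 37 bp from the phol start. Among couples over 100 and up to 1000 bp apart the shares were 28.3% upstream and 8.06% downstream (7.08 to 9.14). At over 1000 bp they were 26.5% upstream and 37.8% downstream. On X, 8 of 29 upstream units (27.6%) and 1 of 29 downstream units, that of arm (122 bp from CR45929), had one.

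Counted over the 318 first units of pairs and runs, the share was 35.5% (113). In 5 places the divergent partner was itself the first unit of a pair or run, so that 4 or 5 units led outward from one divergent start region. The X example is described above. On 2R, RpS18/CG8908 and plu/PCNA left from starts 295 bp apart. RpS18 encodes a protein of the small ribosomal subunit, plu a regulator of the early embryonic cell cycles, and PCNA the sliding clamp of DNA replication. On 3R, DNApol-alpha73/CG17991 and CG31064/CG42814 left from starts 78 bp apart, and PyK/CG7069 and CG5380/CG5382 from starts 163 bp apart. PyK encodes pyruvate kinase, CG5380 (now Polr3F) a subunit of RNA polymerase III, and DNApol-alpha73 (now PolA2) a subunit of DNA polymerase alpha. On 2L, CG8460/PGAP5 and CG8475/CG34134 left from starts 275 bp apart.

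Overlap with a unit of the opposite strand, by at least 1 bp, was recorded for 68 upstream units (19.9%; 15.8 to 24.5) and 135 downstream units (39.5%; 34.3 to 44.9), and for 39.2% of eligible units in no pair (38.3 to 40.1). The same order held for couples over 100 and up to 1000 bp apart, with 22.6% upstream and 36.6% downstream. It was reversed for couples over 1000 bp apart, with 47.3% upstream and 40.2% downstream. In the tandem pairs the median gap to the next unit on the strand was 65 bp behind upstream units, which the rule partly sets. Behind downstream units it was 2196 bp. The part of this spacing in the overlap shares was not tested. A whole pair lay inside an opposite-strand unit in 24 cases (7.02%; 4.55 to 10.3), against 4.84% of couples over 100 and up to 1000 bp apart (4.07 to 5.70) and 2.90% of couples over 1000 bp apart (2.50 to 3.35). A couple of short span fits inside a host more easily, and the part of span in these shares was not tested. A nested run counts once for each of its pairs. Joint host units go here by the first gene listed. Hosts with known roles include Egfr, the epidermal growth factor receptor gene, for CG30287/CG30286, and sbb for both CG14502/CG18536 and CG18538/CG18539. The receptor gene tkv, of Dpp signalling, was the host of Cyp4ac2/Cyp4ac3, pk of Spn43Ad/Spn43Ab, and Pax of the lectin run.

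**Figure D5:**
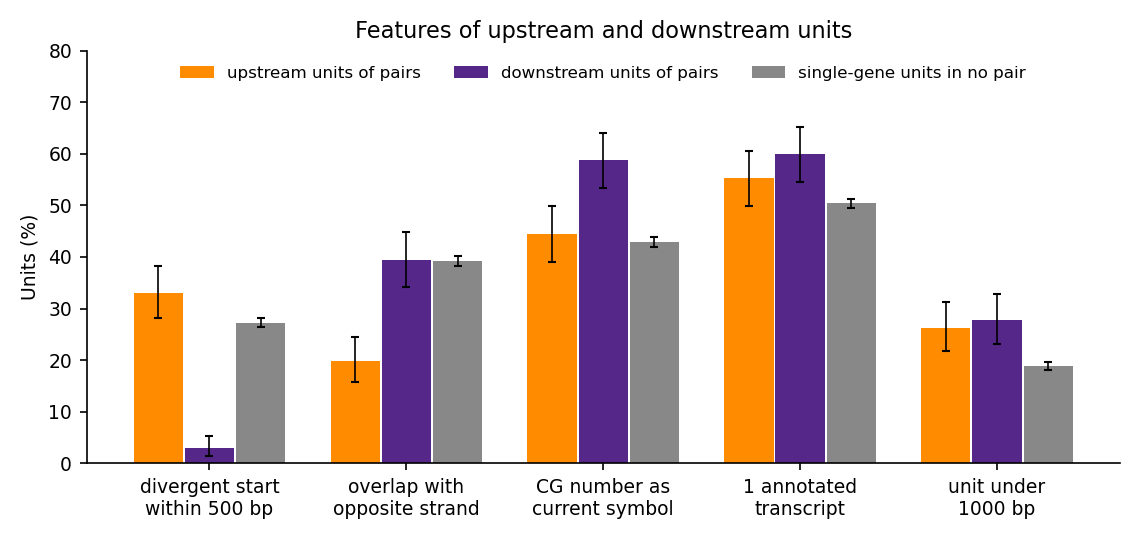
Share (y axis, percent) of the 342 upstream units, the 342 downstream units and the 11229 eligible units in no pair with each of 5 features (x axis). Error bars are 95% exact binomial intervals. Divergent starts reach 33.0% upstream and 2.92% downstream, overlap with the opposite strand 19.9% and 39.5%, and CG numbers 44.4% and 58.8%.

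Downstream genes were more often without a given name. The current RefSeq symbol was still a CG number for 152 upstream genes (44.4%; 39.1 to 49.9) and 201 downstream genes (58.8%; 53.4 to 64.0), against 42.9% of eligible units in no pair (42.0 to 43.9) and 45.0% of the downstream units of couples over 100 and up to 1000 bp apart (43.2 to 46.9). A named upstream gene preceded a CG number in 93 pairs and the reverse held in 44. In 97 pairs both genes were named and in 108 neither was.

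Gene families were followed by a shared symbol start of at least 3 characters, which can be asked only where both symbols in the annotation are names. Of 82 such pairs, 21 (25.6%; 16.6 to 36.4) shared a start. Among couples over 100 and up to 1000 bp apart it was 201 of 843 (23.8%; 21.0 to 26.9), and among couples over 1000 bp apart 8.12% (6.92 to 9.46). The tandem share is thus close to that of couples over 100 and up to 1000 bp apart. All 21 pairs were autosomal, and only 5 of the 29 X pairs had both genes named. Symbols are no measure of protein similarity, which was not analysed here, and pairs such as GC1/GC2 (7 bp) fall outside the rule for their short symbols.

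Beside the families in runs, these pairs included Cyp309a2/Cyp309a1, Cyp4ac2/Cyp4ac3 and Cyp6a17/Cyp6a23, of cytochrome P450 enzymes, with gaps of 55, 42 and 89 bp. The carboxylesterase genes Est-6 and Est-P stood 27 bp apart, the nucleoside transporter genes CNT2 and CNT1 20 bp, and the accessory gland genes Acp26Aa and Acp26Ab 20 bp. Gaps were 65 bp between the maltase genes Mal-A5 and Mal-A6, 74 bp between the scavenger receptor genes Sr-CIII and Sr-CI, and 92 bp between the glutathione transferase genes GstE8 and GstE9. The serpin genes Spn43Ad and Spn43Ab stood 95 bp apart and the mitochondrial carrier genes Ucp4C and Ucp4B 97 bp.

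Members of 25 gene lists, matched by symbol pattern, were counted beside the 5.55% of all 11889 eligible units that are members. Of eligible units in any list, 58 of 1282 (4.52%) stood in a pair. No unit of the MSL complex (0 of 6) or of the sex determination list (0 of 15) did, which at the limit of 3 counts says little for lists of this size. The same holds for autophagy genes (0 of 16). The symbol patterns for gut and blood serine proteases (0 of 39) and immune peptides (0 of 58) found none either, but they miss genes under other names, such as the serine protease gene gd, which is a member. In the NSL complex 1 of 7 was a member: MBD-R2 on 3R, 63 bp before CG10041. In the pausing list it was 1 of 13, M1BP on 3R, 96 bp before ranshi. M1BP binds a core promoter motif of paused genes.

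Listed genes of the transcription machinery stood upstream in all of their pairs but 1, a count of only 7 pairs. In the list of general transcription factors 2 of 34 were members, Cdk7 on X and Ssl1, another TFIIH subunit, 81 bp before slif on 3L. In the Mediator list it was 2 of 26, MED23 9 bp before CG3700 and MED16 79 bp before the retromer gene Vps35, both on 2R. In the Integrator list it was 2 of 14, IntS14 80 bp before CG14341 on 2L and IntS4, the downstream gene behind CG12112 on X. Of RNA polymerase subunits 1 of 30 was a member, Polr3F, 96 bp before CG5382. Of these 7 pairs, those of MED23 (71 bp), Ssl1 (105 bp), IntS4 (130 bp), Polr3F (163 bp), Cdk7 (259 bp) and MED16 (259 bp) had a divergent start within 500 bp of the upstream start, and that of IntS14 had its nearest at 557 bp. The partner of Ssl1 is the joint unit of Chro and CR45968, and that of Cdk7 is snf, a splicing factor gene. In the pair of IntS4 the divergent start lay before CG12112, not before the listed gene. Such a start was found for 33.0% of all 342 upstream units, and 7 pairs are too few to compare with that share. Of the upstream genes M1BP and MBD-R2 named above, M1BP had one at 393 bp, while the nearest of MBD-R2 lay at 3743 bp.

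The lists of this paragraph had 1 to 4 members of pairs each. From 1.72% to 6.67% of their units stood in pairs, on either side of the 5.55% of all eligible units. It was 1 of 58 for cytoplasmic ribosomal proteins (1.72%; RpS18), 3 of 72 for mitochondrial ribosomal proteins (mRpL54, mRpL36 and mRpS10), and 3 of 83 for the respiratory chain (ND-13B, COX7AL and UQCR-Q), all of them upstream. The proteasome list had 3 of 45 (6.67%; Prosbeta6, Rpt3R and, downstream of CG5245, Prosalpha2). The spliceosome list had 1 of 33, Sf3b5, with its unit of 370 bp 62 bp before Kcmf1. Replication and repair genes had 3 of 60 (5.00%; DNApol-alpha73, Psf1 and PCNA), translation initiation factors 2 of 39 (5.13%; eIF3i and eIF4E5, both downstream), vesicle and sorting genes 4 of 111 (Snx6, Trs31, Vps35 and Syx13), and tRNA synthetases 1 of 30 (AlaRS). The patterns miss members under other names, such as alpha-PheRS and NdufA3.

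Lists of genes in clusters had shares on either side of the 5.55% of all eligible units. They rest on 1 to 10 members each, and no interval was calculated for them. Seminal fluid proteins had 6 of 51 (11.8%), all 5 of their pairs on 2L, where CG42465/Sfp24C1 stood 15 bp apart and Acp29AB/CG42820 57 bp. Cytochrome P450 genes had 8 of 79 (10.1%), with 3 of 5 pairs between members, and glutathione transferases 3 of 35 (8.57%). Chemoreceptors and odorant-binding proteins had 10 of 211 (4.74%). Downstream members outside the Obp57 run were Ir25a (34 bp behind tank), Gr47b (28 bp behind san) and Gr89a (98 bp behind Decay). Ir25a is a co-receptor of ionotropic receptors. Upstream ones were Or49a (64 bp before CG30048), Obp50e (66 bp before CG34185), Obp8a (85 bp before CG15368) and Obp56f (99 bp before CG8517). Cuticle proteins, in spite of their arrays, had 1 of 119 (0.840%), Lcp9, which lay 77 bp before egg, a histone H3 lysine 9 methyltransferase gene.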

How the data were processed

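Per the labels, 15 mNET-seq samples fall into 4 groups by sex and treatment, but the only file used is the authors' annotation of transcription units, with positions in bp and no sample values. The deposited positions are 1-based and inclusive, and per the file headers the authors wrote them with rtracklayer 1.48.0. Per the submitters' processing notes the build is dm6, and cutadapt 2.8, STAR 2.7.4a and SAMtools 1.20 were also named, with no role. The sources used here state neither the annotation release nor the rule for joining genes.

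Neighbours were consecutive units of a strand, and gaps were next start minus previous end minus 1. Members were matched to RefSeq by symbol (617), CG number (31) or synonym (12) on the same chromosome. Pairing was tested on a simulated annotation. Python 3.11.15, pandas 2.3.3, NumPy 2.4.6, SciPy 1.17.1 and matplotlib 3.10.9 were used. Intervals (95%) are exact Clopper-Pearson for shares and order statistics for medians. No significance test was made, since units are not replicates.

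The members, the 25 gene lists and the naming rule were chosen with earlier results of these data known. The rule names pairs by smallest gap, gaps at or 1 bp past the limit, longest and shortest units, most transcripts, and up to 4 pairs of each list (all for transcription lists). All X pairs, runs, family pairs, chemoreceptor pairs and back-to-back sets were listed afterwards, with families given by symbol. Other examples, such as GC1/GC2, CG3437/phol and the hosts with known roles, were picked outside these rules. No reference sequence was at hand, so motifs, promoters and proteins were not used here.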

Additional observations from a re-analysis of the deposited data

How the results depend on the processing

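Of 24 alternatives, 13 stayed within 1.5 times of a count or within the interval of a share or median. Some of these could not move. All 342 pairs were protein-coding, which fixed the length ratio of protein-coding pairs and the coding share for gaps up to 50 bp. RefSeq bounds equal those of the units for 658 of 660 members, so that setting could barely change the count. With every unit kept the X share counted as stayed, yet its ratio to the autosomal share went from 0.491 to 0.773. The count of 342 pairs became 107 with gaps up to 50 bp and 1005 with gaps up to 200 bp, and the 23 runs became 2 and 112. By construction these limits admit fewer or more couples. RefSeq bounds kept all 342 pairs, and joint units brought the count to 412. The X share of 1.95% became 0.538% at 50 bp, against 1.26% on the autosomes, 7.54% at 200 bp, against 11.3%, and 6.74% among couples within 1000 bp, against 11.6%. X stayed below each large autosomal arm in every such setting, also with protein-coding genes alone (1.97%), without units under 1000 bp (1.46%), and with every unit kept (2.75%). The settings with couples within 1000 bp and with every unit kept were chosen after seeing the data. Divergent starts were found for 18.4% of upstream and 1.17% of downstream units within 250 bp, and for 39.8% and 7.02% within 1000 bp, against 13.4% and 36.1% of all eligible units. The median length ratio stayed between 0.04 and 0.11 on the log2 scale, and every interval included 0. Settings for protein identity and for the DRE motif were not run, since sequences were not used here. No paired analysis was possible because the file holds no value of any sample, and for the same reason no replicate could be left out.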
